A study of Mus musculus with 28 samples.

Results

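The keratin and keratin-associated genes are the protein-coding mouse genes whose symbols begin with Krt and a digit or with Krtap. In the GENCODE M21 annotation they were 110 of 21755 protein-coding genes on chromosomes 1 to 19 and X, 53 of them keratin genes and 57 keratin-associated genes. Their starts were placed in 5 deposited sets of H3K9me2 domains, long stretches of the genome carrying dimethylated lysine 9 of histone H3. The domains came from ULI-NChIP, in which chromatin is immunoprecipitated without crosslinking from few cells. The cells were mouse embryonic stem cells (mESCs) of a BL6/129 hybrid background, grown in serum and LIF, and all of them carried the EHMT2-dTAG-mcherry allele, a degron fused to the histone methyltransferase EHMT2. Those sorted for the 4 conditions used here also carried a MERVL-GFP reporter, came from 1 clone, and were kept for 72 h in DMSO, the solvent, or in dTAG-13, which removes the tagged protein. GFP-negative cells are called mESC and GFP-positive cells 2CLC, for 2-cell-like cells, a rare state of such cultures. Each sorted condition has 3 immunoprecipitation and 3 input libraries, and the labels give the retinoic acid receptor agonist TTNBP for 2 replicates whereas the study's methods name no such limit.

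Keratins are the intermediate filament proteins of epithelia, and a type I keratin pairs with a type II keratin to build the filament. Keratin-associated proteins are small proteins rich in cysteine, or in glycine and tyrosine, that fill the space between keratin filaments in the hair shaft. Both families lie in clusters of neighbouring genes, and EHMT2 together with EHMT1 places H3K9me2 on repressed chromatin of embryonic stem cells.

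The sets hold positions only. Each is a single list for a condition, so no value has a replicate and no difference could be set against the spread between cultures or tested, and the identity of the sorted cells could not be checked against marker levels. A domain begins from a stretch where the log2 ratio of immunoprecipitation to input stood high and extends until that ratio is low. It therefore also holds bases of intermediate ratio, and it is not a level of H3K9me2. Whether these limits were fixed for each set separately is not given in the sources used here. The 5th set names neither a cell state nor a treatment, was assigned to no group and is called unlabelled. Domains covered 53.7% of the genome in mESC with DMSO, 46.3% in mESC with dTAG, 51.5% in 2CLC with DMSO, 48.4% in 2CLC with dTAG and 62.6% in the unlabelled set. The depth behind them is unknown.

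The 110 genes formed 6 clusters when neighbours more than 1 Mb apart were separated. Keratin genes occupied chromosomes 11 and 15, and keratin-associated genes chromosomes 1, 7, 10, 11 and 16. The type II keratins, with the type I gene Krt18 at the end, made up the chromosome 15 cluster of 26 genes from Krt80 to Krt18. The cluster of chromosome 11 held 50 genes in 3 blocks, with 12 keratin genes from Krt222 to Krt40, then 23 keratin-associated genes from Krtap3-3 to Krtap17-1, then 15 keratin genes from Krt33a to Krt42. The other keratin-associated genes were the 24 of chromosome 16, the 5 Krtap5 genes of chromosome 7, 3 genes of chromosome 10 and 2 of chromosome 1. The families also differed in gene structure. The keratin genes had 5 to 9 exons, with a median length of 6.59 kb, whereas 52 of the 57 keratin-associated genes had a single exon and the median length was 0.892 kb.

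The bases just before the start are printed for 9 genes, taken from both families and from clusters inside, outside and at the edge of domains. Each line gives the 120 bases before the RefSeq start in GRCm38.p6, read 5′ to 3′ on the gene's strand, with TATAAA in capitals.
Krt8, chr15:102004343-102004462, minus strand: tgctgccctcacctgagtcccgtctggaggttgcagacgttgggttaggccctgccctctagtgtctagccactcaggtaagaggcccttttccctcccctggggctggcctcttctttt
Krt18, chr15:102028096-102028215, plus strand: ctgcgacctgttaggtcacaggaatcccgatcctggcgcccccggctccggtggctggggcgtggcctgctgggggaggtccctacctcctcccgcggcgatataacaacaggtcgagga
Krt10, chr11:99389365-99389484, minus strand: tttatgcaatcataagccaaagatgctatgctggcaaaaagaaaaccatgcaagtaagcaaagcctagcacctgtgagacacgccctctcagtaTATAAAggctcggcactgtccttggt
Krtap4-6, chr11:99665961-99666080, minus strand: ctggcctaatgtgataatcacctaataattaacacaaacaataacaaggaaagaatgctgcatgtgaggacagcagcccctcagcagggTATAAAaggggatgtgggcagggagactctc
Krtap4-13, chr11:99809897-99810016, minus strand: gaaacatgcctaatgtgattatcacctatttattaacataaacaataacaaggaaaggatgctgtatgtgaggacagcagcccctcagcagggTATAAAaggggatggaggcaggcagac
Krtap24-1, chr16:88612280-88612399, minus strand: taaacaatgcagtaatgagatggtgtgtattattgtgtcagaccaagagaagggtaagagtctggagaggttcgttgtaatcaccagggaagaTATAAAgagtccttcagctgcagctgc
Krtap11-1, chr16:89571184-89571303, minus strand: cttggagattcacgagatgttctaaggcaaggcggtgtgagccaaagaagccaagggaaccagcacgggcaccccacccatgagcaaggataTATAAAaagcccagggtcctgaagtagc
Krtap5-5, chr7:142229972-142230091, minus strand: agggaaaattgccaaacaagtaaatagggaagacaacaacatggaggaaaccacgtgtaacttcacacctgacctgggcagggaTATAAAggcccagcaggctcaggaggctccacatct
Krtap28-13, chr1:83060810-83060929, plus strand: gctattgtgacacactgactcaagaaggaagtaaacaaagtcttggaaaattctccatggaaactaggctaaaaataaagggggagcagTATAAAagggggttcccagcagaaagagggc
In the lines for the 6 keratin-associated genes, the first base of TATAAA lay 27 to 36 bases before the start. That of the chromosome 11 keratin Krt10 lay 26 bases before it. The lines of the chromosome 15 keratins Krt8 and Krt18 did not hold the motif. However, the Krt8 line lies inside the gene by its GENCODE start, chr15:102004482, and the Krt18 line runs past its GENCODE start, chr15:102028180. These 2 lines therefore do not show the bases before the GENCODE start alone. RefSeq promoter windows of 300 bases, from 250 before to 50 after the start, were matched for 87 of the 110 genes, 36 keratin and 51 keratin-associated. TATAAA or its reverse complement TTTATA, which can overlap each other and were counted once per window, occurred in 19 keratin windows (52.8%) and 42 keratin-associated windows (82.4%), beside 13.7% of the 32619 windows in the table. The Krt8 window was among the 19. On the gene's strand with its first base 45 to 20 bases before the start, the motif was in 36.1% of keratin, 62.7% of keratin-associated and 2.15% of all windows. The families overlapped in this once split by chromosome, with 10 of 20 keratin windows of chromosome 11 and 3 of 16 of chromosome 15, beside 10 of 23 keratin-associated windows of chromosome 16 and 22 of 28 elsewhere. The median number of CpG in a window was 5.00 for keratin genes, 2.00 for keratin-associated genes and 7.00 for all windows. Krt7 and Krt18, keratins of simple epithelia, had the most CpG of the keratin windows, with 21 and 17. These matches describe letters in a window, and binding was not measured.

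To ask where the genes stood relative to H3K9me2 domains, the start of each gene was placed in each set. Keratin starts were almost all outside domains in sorted cells, whereas about every other keratin-associated start was inside. Of 53 keratin starts, 2 (3.77%) lay in a domain in mESC with DMSO and 0 in mESC with dTAG, 0 in 2CLC with DMSO and 0 in 2CLC with dTAG. Of 57 keratin-associated starts, 27 (47.4%) lay in a domain in mESC with DMSO, 28 (49.1%) in mESC with dTAG, 28 (49.1%) in 2CLC with DMSO and 29 (50.9%) in 2CLC with dTAG. The share of all protein-coding starts was 22.3% in mESC with DMSO, 23.6% in mESC with dTAG, 23.2% in 2CLC with DMSO and 26.5% in 2CLC with dTAG. The keratin share was thus below and the keratin-associated share above that of all genes in each of the 4 sorted sets.

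**Figure D1:**
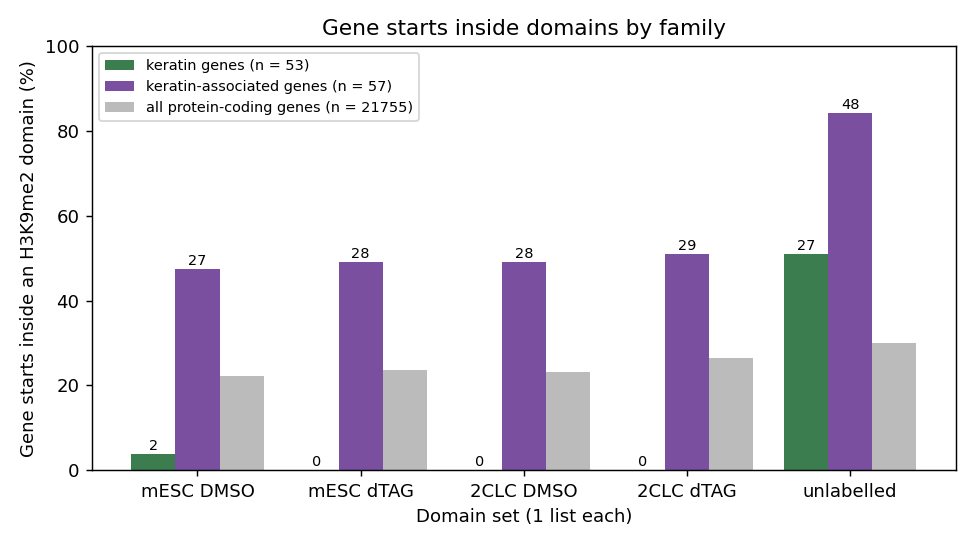
Percentage of gene starts inside an H3K9me2 domain (y axis) in each of the 5 domain sets (x axis), with keratin genes in green, keratin-associated genes in purple and all protein-coding genes in grey. Numbers above the bars are counts of starts, and the purple bars stand at 47.4% to 50.9% in the sorted sets while the green bars stand at 3.77% or 0.

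These counts rest on few domains, since neighbouring genes share them. All 24 keratin-associated starts of chromosome 16 lay in domains in all 4 sorted sets, and no other member did. Without chromosome 16, the keratin-associated starts in domains were 3 of 33 (9.09%) in mESC with DMSO, 4 (12.1%) in mESC with dTAG, 4 (12.1%) in 2CLC with DMSO and 5 (15.2%) in 2CLC with dTAG, each below the share of all genes. Of the keratin-associated genes, 24 (42.1%) were in domains in all 4 sorted sets, 22 (38.6%) in none and 11 (19.3%) in 1 to 3. Of the keratin genes, 0 were in domains in all 4, 51 (96.2%) in none and 2 (3.77%) in 1 to 3. For all protein-coding genes these shares were 15.1% in all 4, 65.8% in none and 19.1% in 1 to 3.

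**Figure D2:**
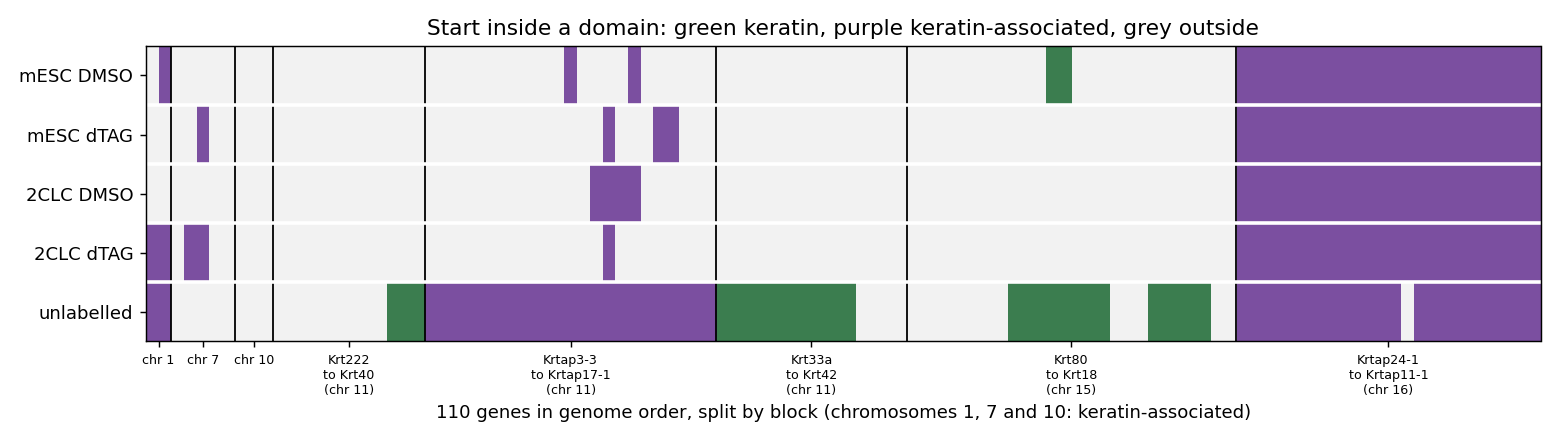
The 110 genes in genome order (x axis, black lines between blocks) in the 5 domain sets (rows), coloured where the start lay in a domain, green for keratin and purple for keratin-associated genes, and light grey where it did not. The 24 genes of chromosome 16 are filled in all 4 sorted sets, and the keratin blocks are empty there apart from 2 genes in mESC with DMSO.

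The chromosome 16 cluster, chr16:88610705-89571183, ran over 0.960 Mb from Krtap24-1 to Krtap11-1. It holds the glycine- and tyrosine-rich families Krtap6, Krtap7, Krtap8 and Krtap19 to Krtap22 beside cysteine-rich genes such as Krtap11-1 and Krtap13-1. Domains covered 100% of its bases in mESC with DMSO and 99.0% in each of mESC dTAG, 2CLC DMSO and 2CLC dTAG, and 930 kb of it lay in domains in all 4. The 14 other protein-coding genes inside the cluster were also in domains in all 5 sets.

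The sets differed in how the cluster was divided, as they did over the genome, where mESC had 4323 domains of median width 140 kb in DMSO and 7312 of 60 kb in dTAG, and 2CLC 4246 of 115 kb and 8820 of 60 kb. In mESC DMSO a single domain of 2025 kb, chr16:87739797-89764793, held all 24 starts. In mESC dTAG the same genes lay in 3 domains, of 300 kb with the 7 starts from Krtap24-1 to Krtap14, of 680 kb with 16 starts from Krtap19-1 to Krtap7-1, and of 255 kb with Krtap11-1 alone. The longest stretch between them was 5.00 kb, the width of 1 bin. In 2CLC DMSO the break, of 10.0 kb, fell after Krtap24-1, which lay in a domain of 875 kb, while the other 23 starts lay in a domain of 1125 kb. In 2CLC dTAG the break, also of 10.0 kb, fell before Krtap11-1, leaving 23 starts in a domain of 990 kb and Krtap11-1 in a domain of 190 kb. No start fell in a break of a sorted set.

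The division also set the distance of the starts from a domain edge. Its median over the 24 starts was 850 kb in mESC with DMSO, 87.8 kb in mESC with dTAG, 251 kb in 2CLC with DMSO and 303 kb in 2CLC with dTAG. The start nearest an edge was 194 kb inside in mESC with DMSO, 18.6 kb in mESC with dTAG, 8.00 kb in 2CLC with DMSO and 26.4 kb in 2CLC with dTAG. Outside the cluster, the 500 kb below Krtap24-1 were covered to 100% in both DMSO sets, 96.0% in mESC with dTAG and 80.0% in 2CLC with dTAG. The 500 kb above Krtap11-1 were covered to 38.7% in mESC with DMSO, 52.0% in mESC with dTAG, 43.7% in 2CLC with DMSO and 47.0% in 2CLC with dTAG. On the lower side the nearest genes, the claudins Cldn8 and Cldn17, were in domains in every sorted set except 2CLC dTAG for Cldn17, and on the upper side Tiam1 and Sod1 were in none.

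**Figure D3:**
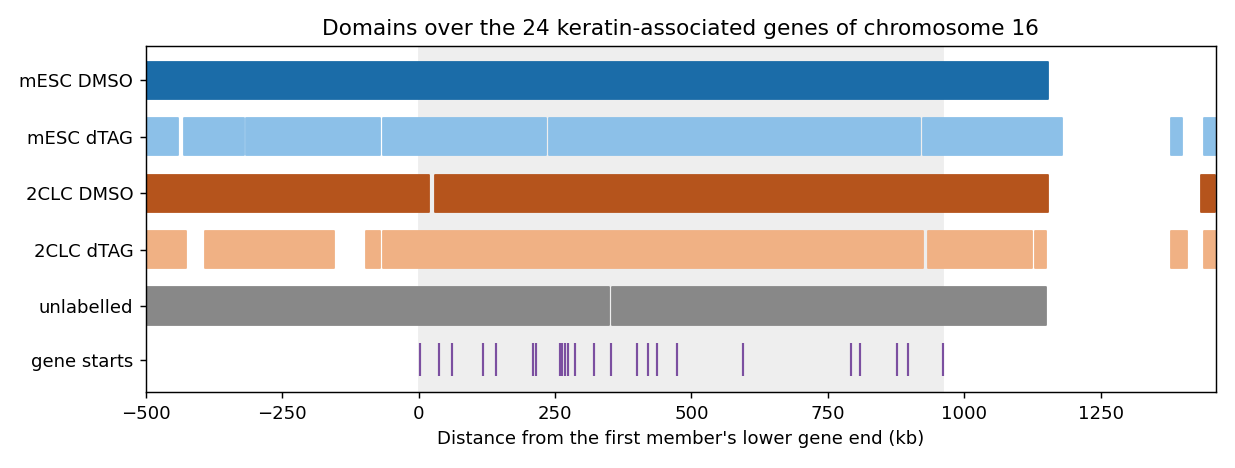
Domains of the 5 sets (coloured bars) over the chromosome 16 cluster (grey shade) and 500 kb on both sides, with the 24 keratin-associated starts as purple lines, against the distance in kb from the lower end of the cluster (x axis). The cluster lies in a single bar in mESC with DMSO and in 2 or 3 bars with gaps of at most 10.0 kb in the other sorted sets.

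The chromosome 11 cluster, chr11:99232761-100269871, shows both families side by side over 1.04 Mb. Both keratin blocks were at 0% coverage in all 4 sorted sets, and every domain inside the cluster lay in the keratin-associated block between them. This block of 0.444 Mb was covered to 46.2% in mESC with DMSO, 31.5% in mESC with dTAG, 46.2% in 2CLC with DMSO and 27.0% in 2CLC with dTAG. The domains were short, and the widest in each set was 115 kb, 40.0 kb, 100 kb and 55.0 kb in the same order. In mESC, 115 kb of the block were in domains under both treatments, 90.0 kb in DMSO only and 25.0 kb in dTAG only. In 2CLC these were 105 kb, 100 kb and 15.0 kb. DMSO-only bases exceeded dTAG-only bases in both cell states, and 80.0 kb were in domains in all 4 sets. Coverage of the whole of chromosome 11 was also lower in dTAG, at 27.0% beside 34.6% in mESC and 28.4% beside 31.1% in 2CLC.

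Few member starts of this block lay in its domains. The widest domain in mESC with DMSO, 115 kb, and that in 2CLC with DMSO, 100 kb, lay largely over the longest interval between member starts of the block, the 115 kb from Krtap4-6 to Krtap4-8, and held 1 and 0 member starts. This interval was not free of genes, and the 3 other protein-coding genes that start in it were in domains in both DMSO sets. Of all 18 other protein-coding genes of the block, 7 were in domains in mESC and 10 in 2CLC under DMSO, and 4 and 6 under dTAG. These other genes were set apart from the members by symbol only. Whether they encode keratin-associated proteins was not checked, so the counts do not separate that family from unrelated genes. The members in a domain changed from set to set, with Krtap4-6 and Krtap9-1 in mESC with DMSO, Krtap4-13, Krtap31-2 and Krtap9-5 in mESC with dTAG, Krtap4-9, Krtap4-13, Krtap4-16 and Krtap9-1 in 2CLC with DMSO, and Krtap4-13 in 2CLC with dTAG. Krtap4 and Krtap9 encode cysteine-rich proteins of the hair shaft. Several of these starts lay close to an edge. Krtap4-9 was 0.498 kb inside its 2CLC DMSO domain, and Krtap9-5 was 1.23 kb inside its mESC dTAG domain. Krtap9-1 was 3.69 kb inside its domain in both DMSO sets and 6.31 kb outside one in both dTAG sets. Krtap4-13 was 4.81 kb outside a domain in mESC with DMSO and 5.19 kb, 25.2 kb and 20.2 kb inside one in mESC with dTAG, 2CLC DMSO and 2CLC dTAG. With bins of 5 kb, a shift of an edge by 1 or 2 bins would change the state of most of these genes.

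The block also stood apart in sequence. Of its bases, 12.9% began a 50-base word found more than once on chromosome 11, beside 4.62% for the whole chromosome, 1.82% for the lower and 2.54% for the upper keratin block. For the chromosome 16 cluster the share was 7.97%, beside 5.92% for its chromosome. The part of repeated sequence in the domain calls was not tested. The guanine and cytosine content was 38.8% for the chromosome 16 cluster, 42.0% for the keratin-associated block of chromosome 11, 48.3% for the chromosome 15 cluster and 41.8% for the genome. It was 43.7%, 46.2% and 48.6% for the keratin-associated clusters of chromosomes 1, 7 and 10. For the lower and upper keratin block of chromosome 11 it was 44.2% and 47.7%, so the families overlapped in it.

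The keratins of chromosome 11 were far from the nearest domain. Krt10, the type I keratin of differentiating epidermis, was 270 kb from one in mESC with DMSO, 300 kb in mESC with dTAG, 285 kb in 2CLC with DMSO and 305 kb in 2CLC with dTAG. Krt14, the type I keratin of basal keratinocytes, was at 273 kb, 258 kb, 308 kb and 278 kb in the same order. Krt19 of simple epithelia was at 214 kb, 199 kb, 249 kb and 219 kb. The intestinal keratin Krt20 was at 222 kb, 252 kb, 237 kb and 257 kb, and Krt222, the first gene of the cluster, at 416 kb, 446 kb, 431 kb and 451 kb. Krt15, Krt17 and Krt31, keratins of basal cells and hair follicles, of epidermal appendages and of the hair cortex, were between 101 kb and 361 kb away, and Krt42, the last gene, was 320 kb to 370 kb away. All of these distances lead into the keratin-associated block. The nearest genes outside the cluster, Smarce1 and Eif1, were in no domain in any set.

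**Figure D4:**
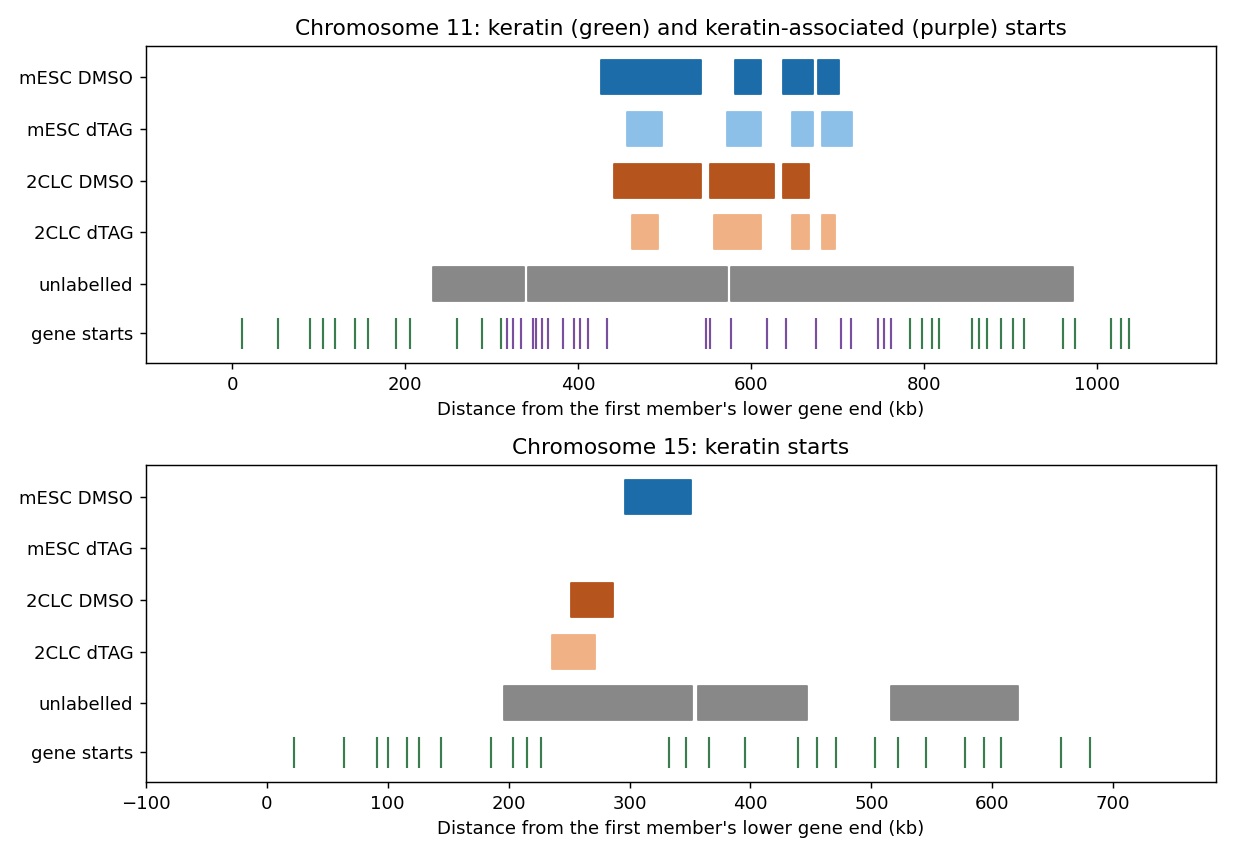
Domains of the 5 sets (coloured bars) over the chromosome 11 cluster (top) and the chromosome 15 cluster (bottom), with keratin starts as green and keratin-associated starts as purple lines, against the distance in kb from the lower end of each cluster (x axis). On chromosome 11 the bars of the sorted sets lie within the stretch of purple starts, mostly between them, and on chromosome 15 each sorted set has 1 bar of 55.0 kb or 35.0 kb or, in mESC with dTAG, none.

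The chromosome 15 cluster, chr15:101347444-102032027, held the only starts of genes with a keratin symbol in a domain of a sorted set. A domain of 55.0 kb in mESC with DMSO, chr15:101643602-101698601, held Krt6b and Krt6a, keratins of the hair follicle and nail that are induced in wounded epidermis. Krt6b was 18.3 kb and Krt6a 4.29 kb inside its edge. Neither was in a domain in the other sorted sets, where Krt6a was 904 kb from the nearest domain in mESC with dTAG, 60.7 kb in 2CLC with DMSO and 75.7 kb in 2CLC with dTAG. Krt5, the type II partner of Krt14 in basal keratinocytes and the next gene after Krt6a, was 14.3 kb outside the mESC DMSO domain.

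Coverage of the chromosome 15 cluster was 8.03% in mESC with DMSO, 0% in mESC with dTAG, 5.11% in 2CLC with DMSO and 5.11% in 2CLC with dTAG. Both 2CLC sets had a domain of 35.0 kb just below the position of the mESC DMSO domain, in the 106 kb between Krt75 and Krt6b, and they shared 20.0 kb. Neither held the start of a gene with a keratin symbol. Krt75, a keratin of the hair follicle's companion layer, was 9.70 kb from the 2CLC dTAG domain. Other protein-coding genes of the cluster did start in domains, with Gm5414 in the 2CLC DMSO domain and Gm5478 in the mESC DMSO domain. Both were left out of the members by symbol only, and whether they are keratin genes was not checked. The 500 kb on both sides of the cluster held 0 bases of a domain in any set. In mESC dTAG the whole cluster was therefore far from domains, with Krt75 at 985 kb.

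The simple epithelial pair Krt8 and Krt18 lay at the upper end of the cluster. Krt8 was 306 kb from the nearest domain in mESC with DMSO, 594 kb in mESC with dTAG, 371 kb in 2CLC with DMSO and 386 kb in 2CLC with dTAG. Krt18 was at 330 kb, 570 kb, 395 kb and 410 kb. At the other end were Krt80, at 273 kb, 782 kb, 228 kb and 213 kb, and Krt7 of simple epithelia, at 233 kb, 822 kb, 188 kb and 173 kb. Krt1, the type II partner of Krt10, was at 152 kb, 748 kb, 217 kb and 232 kb. For all keratin starts outside domains the median distance was 194 kb in mESC with DMSO, 446 kb in mESC with dTAG, 206 kb in 2CLC with DMSO and 200 kb in 2CLC with dTAG. For keratin-associated starts outside domains it was 60.4 kb, 45.6 kb, 90.8 kb and 54.8 kb.

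To ask how EHMT2 depletion changed the placement, starts that left or entered domains from DMSO to dTAG were counted in each cell state. The study reported that depletion lowered H3K9me2 globally in both cell states, and its domain limits are percentiles of the ratio. A start that entered a domain is therefore not shown to have gained H3K9me2. In mESC, 2 keratin starts left (3.77%) and 0 entered, and 3 keratin-associated starts left (5.26%) and 4 entered (7.02%), beside 5.08% of all genes that left and 6.32% that entered. In 2CLC, 0 keratin starts left and 0 entered, and 3 keratin-associated starts left (5.26%) and 4 entered (7.02%), beside 4.25% of all genes that left and 7.52% that entered. The keratin-associated shares were near those of all genes in both directions, but the counts depended on the domain limits. With domains of at least 50 kb only, 0 keratin-associated starts entered in mESC, and with domains shortened by 5 kb at both ends 1 left in each cell state. With those shorter domains 1 keratin start left in mESC. The genes that left in mESC were Krt6a, Krt6b, Krtap4-6, Krtap9-1 and Krtap28-13, and those that entered were Krtap4-13, Krtap5-5, Krtap31-2 and Krtap9-5. In 2CLC, Krtap4-9, Krtap4-16 and Krtap9-1 left, and Krtap5-3, Krtap5-5, Krtap28-10 and Krtap28-13 entered. Krtap9-1 left in both cell states and Krtap5-5 entered in both.

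The small clusters held the starts that entered in 2CLC. The Krtap5 cluster of chromosome 7, chr7:142174535-142304594, encodes cysteine-rich proteins and ran from Krtap5-2 to Krtap5-4. It had 0% coverage in both DMSO sets, 30.8% in mESC with dTAG and 38.4% in 2CLC with dTAG. The mESC dTAG domain of 40.0 kb held Krtap5-5, and the 2CLC dTAG domain of 50 kb held Krtap5-3 and Krtap5-5. In DMSO, Krtap5-5 was 485 kb from the nearest domain in mESC and 510 kb in 2CLC, with no edge near by. In dTAG it lay 19.5 kb and 14.5 kb inside its domain. The share of repeated 50-base words was 12.7% in this cluster and 13.2% on chromosome 7.

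The chromosome 10 cluster, from Krtap12-1 to Krtap10-10, also had domains in the dTAG sets only, with 12.9% coverage by a domain of 15.0 kb in each and 0% in DMSO. No member start lay inside, but the starts of Gm9507 and Gm2696, other protein-coding genes of the cluster, did in both dTAG sets. Krtap12-1 was 0.702 kb from a domain in mESC with dTAG. Here 18.2% of bases began a repeated 50-base word, beside 6.54% on chromosome 10.

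On chromosome 1, Krtap28-10 and Krtap28-13 lie 18.4 kb apart. Coverage of their interval was 8.94% in mESC with DMSO, 0% in mESC with dTAG, 0% in 2CLC with DMSO and 100% in 2CLC with dTAG. Krtap28-13 was 0.831 kb inside the edge of a domain of 345 kb in mESC with DMSO, and Krtap28-10 was 17.6 kb outside it. In 2CLC dTAG both lay in a domain of 80.0 kb, 14.2 kb and 32.6 kb from its edge. In the remaining sorted sets the pair was 72.4 kb to 111 kb from a domain.

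**Figure D5:**
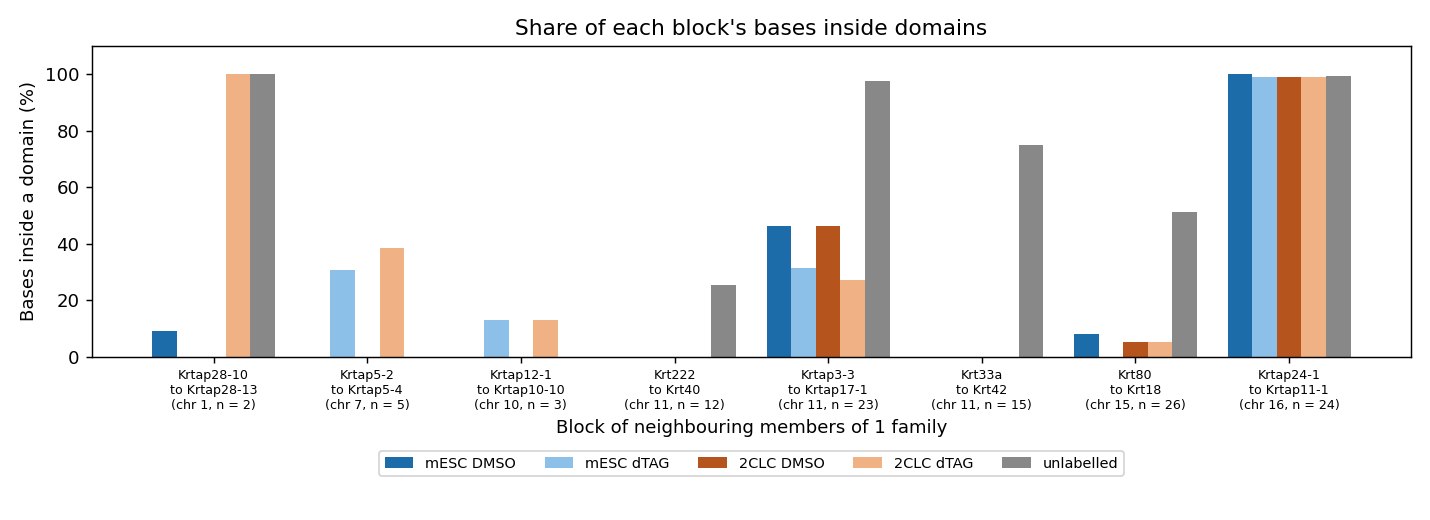
Percentage of bases inside domains (y axis) for the 8 blocks of neighbouring members of a family (x axis) in the 5 domain sets (colours). The chromosome 16 block is at 99.0% to 100% in all sorted sets, the blocks of chromosomes 7 and 10 have bars only in dTAG, and the keratin blocks of chromosome 11 only in the unlabelled set.

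All keratin blocks combined were covered to 4.39% in mESC with DMSO, 0% in mESC with dTAG, 2.79% in 2CLC with DMSO and 2.79% in 2CLC with dTAG. Keratin-associated blocks were covered to 69.8%, 68.5%, 69.1% and 69.2% in the same order, and the genome to between 46.3% and 53.7%. Without the 0.960 Mb of chromosome 16, the other keratin-associated blocks, 0.711 Mb, were covered to 29.1%, 27.4%, 28.8% and 28.9%, below the genome in each set.

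In the unlabelled set both families stood above all genes. Of the keratin starts 27 (50.9%) and of the keratin-associated starts 48 (84.2%) were in domains, beside 30.0% of all genes. Keratin coverage was 25.2% and 74.8% for the lower and upper block of chromosome 11 and 51.1% for chromosome 15, and the keratin-associated block of chromosome 11 was covered to 97.7%. All 23 starts of that block were inside, as were Krt15, Krt19, Krt31, Krt5 and Krt75, while Krt1, Krt7, Krt8, Krt10, Krt14, Krt17, Krt18, Krt20, Krt80 and Krt222 were outside. Coverage of the chromosome 7 and 10 clusters was 0%, and on chromosome 16 Krtap16-3 alone fell into a gap of 5.00 kb between domains of 1255 kb and 795 kb. The cells and treatment behind this set are not known here, so the difference from the sorted sets was not read as an effect of either.

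Lists of genes with related roles were placed by the same rule, and their counts stand beside 22.3% to 26.5% of all starts in domains in the sorted sets. Of 16 other intermediate filament genes, among them Vim and Des, 0 were in a domain in mESC with DMSO, 1 in mESC with dTAG, 0 in 2CLC with DMSO and 1 in 2CLC with dTAG, the entering gene being in both cases the neurofilament gene Nefm. Of 12 genes of desmosomes and the plakin family, 0 were in a domain in any sorted set. That list held no Dsg or Dsc gene, so the desmosomal cadherins were not placed. Of 23 genes listed as regulators of keratinocytes and hair, 1 was in a domain in each DMSO set and 0 in each dTAG set. This gene was Trp63, which encodes the epidermal transcription factor p63. Only the outermost start of each gene was placed, so any start inside Trp63 was not. That list also held Cdx2 and Elf5, which are known mainly from other epithelia.

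The list of cornified envelope and hair shaft genes also held Smcp, a sperm protein gene that lies among them on chromosome 3. The genes of this list lay in domains more often, with 38 of 55 (69.1%) in mESC with DMSO, 24 (43.6%) in mESC with dTAG, 41 (74.5%) in 2CLC with DMSO and 37 (67.3%) in 2CLC with dTAG. In mESC 16 of them left and 2 entered, and in 2CLC 7 left and 3 entered, beside 5.08% and 6.32% of all genes in mESC and 4.25% and 7.52% in 2CLC. Those leaving in mESC were Flg, which encodes filaggrin, Lor, which encodes loricrin, Tgm3, an epidermal transglutaminase, Smcp, and the late cornified envelope genes Lce1a1, Lce1a2, Lce1b, Lce1c, Lce1i, Lce3a, Lce3b, Lce3c, Lce3d, Lce3e, Lce3f and Lce6a. Those entering in mESC were Lce1d and Lce1f. In 2CLC, Flg, Lce1a1, Lce1g, Lce1h, Lce3f, Smcp and the small proline-rich gene Sprr1b left. Ivl, which encodes involucrin, Tchh, which encodes trichohyalin of the hair follicle, and Rptn, which encodes repetin, entered there. Of 36 Lce and Sprr genes, 28 were in a domain in mESC with DMSO, 18 in mESC with dTAG, 32 in 2CLC with DMSO and 27 in 2CLC with dTAG. These genes are neighbours too, and their counts likewise rest on shared domains.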

How the data were processed

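H3K9me2 was profiled by ULI-NChIP in 28 libraries, 14 of them input, from sorted cells after 72 h (3 of each kind per condition) and bulk mESCs after 24 h (2 of each kind). No domain set was assigned to the bulk libraries, and whether the unlabelled set came from them is not known here. The authors aligned reads with a setting that also places reads matching several sites, scaled coverage to genome content, took the log2 ratio of immunoprecipitation to input on a grid of 5 kb, and extended domains from high to low percentiles of that ratio. Whether replicates were pooled is not given in the sources used here. The submitters' processing notes name STAR 2.7.10, Picard 2.26.0, SAMtools 1.14, bedtools 2.30.0, deepTools 3.5.1 and R 4.1.2. The deposited sets hold the chromosome, start and end of each domain in mm10, with a score of 0 throughout, and library depth cannot be read from them.

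Gene starts came from GENCODE M21, and sequence, repeated 50-base words on the same strand and promoters from GRCm38.p6 (RefSeq). A start was in a domain when its base lay inside. Clusters were split at gaps over 1 Mb, flanks were 500 kb, and a block is a run of members of 1 family. Overlaps were computed with Python 3.11.15 and numpy 2.4.6 and checked on simulated intervals. Figures used matplotlib 3.10.9. With 1 list per condition no test was run. The members and lists were chosen with earlier results of these data known. Membership rested on the symbol alone, and genes of either family under other symbols were not sought. Named were all genes placed in some but not all sorted sets, the first and last gene of each cluster, a list of textbook keratins, and listed genes that changed with treatment. The genes beside the clusters were named after their placement was seen. Alternatives were a minimum width of 50 kb, edges moved by 5 kb, gene bodies in place of starts, pseudogenes, other cluster limits and, added after seeing the data, RefSeq starts.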

Additional observations from a re-analysis of the deposited data

Results flagged for a closer look

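Krtap28-13 was the 1 gene that moved in opposite directions in the cell states, leaving a domain in mESC and entering one in 2CLC from DMSO to dTAG. This is 0.909% of the 110 genes, beside 0.832% of all protein-coding genes (181) that moved in opposite directions. Both states are single lists, and the difference was not tested. The start was 0.831 kb inside the mESC DMSO domain and 14.2 kb inside the 2CLC dTAG domain.

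The unlabelled set held 25 keratin starts (47.2%) and 16 keratin-associated starts (28.1%) that were in no domain of a sorted set. For all protein-coding genes this share was 6.31%.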

How the results depend on the processing

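Of 168 recomputed values, 155 stayed within 1.5 times the reported count or within the Wilson 95% interval of the reported coverage over 5 kb bins, which covers position along the genome only. That interval takes neighbouring bins as independent, although a domain is a run of them. Some of the 155 could not move, such as counts of 0 starts under narrower domains. The 8 coverages with clusters split at 200 kb also could not, because the clusters stayed the same. The keratin-associated share stayed above the keratin share in 32 of 32 comparisons over settings and sorted sets, the main setting included. No setting left out the 24 starts of chromosome 16, so that cluster largely set the size of the difference in each comparison. Without chromosome 16 the keratin-associated share in the main setting was 9.09% to 15.2%, beside 3.77% or 0 for keratin starts. That case was not among the 32. With domains shortened by 5 kb at both ends, 1 keratin start was in a domain in mESC DMSO, 1 keratin start left in mESC, and 1 keratin-associated start left in mESC and 1 in 2CLC. With pseudogenes included, 1 keratin start was in a domain in each of mESC dTAG, 2CLC DMSO and 2CLC dTAG. With domains of at least 50 kb only, 0 keratin-associated starts entered in mESC, keratin coverage was 0% in both 2CLC sets, and keratin-associated coverage fell to 64.5% for DMSO and 56.9% for dTAG in mESC. With blocks extended by 20 kb on both sides, keratin-associated coverage in 2CLC DMSO was 63.9%. RefSeq starts, tried after seeing the data, and cluster limits of 200 kb or 2 Mb changed no count of starts or clusters. No paired analysis was possible because each condition has 1 domain list and no value of a single library, and for the same reason no replicate could be left out. Depth is unknown, so a start outside a domain does not show that H3K9me2 was absent.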
